A study of Mus musculus with 2 samples.

Results

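The genes described here are 9 members of the STAT and IRF families of transcription factors, Stat2, Stat3, Irf1, Irf2, Irf4, Irf5, Irf7, Irf8 and Irf9, taken by symbol from a matrix of 22597 genes. Each symbol was found once, so all 9 are followed. The choice was made by gene family, with earlier results of these data known. None of the 9 was used to sort cells into states. The cells are lung monocytes and macrophages of donor origin. The Tgfbr2-KO pool came from 5 chimeric mice that received LyzM-Cre Tgfbr2 fl/fl marrow, and the control pool from 5 that received Tgfbr2 fl/fl marrow without the Cre. LyzM-Cre is a recombinase placed in the lysozyme gene Lyz2 that acts in myeloid cells, and Tgfbr2 encodes a receptor subunit for TGF-beta. Donor cells of both kinds were CD45.1-CD45.2+, every host was an irradiated CD45.1+CD45.2+ IM-DTR mouse, and every mouse was given 50 ng of diphtheria toxin 10 days before sacrifice. IM-DTR mice carry a toxin receptor on interstitial macrophages, the macrophages of the lung wall. The sort kept CD64+ donor cells of low side scatter that also carried CD11b, left out Ly6G+ and SiglecF+ cells, and each pool was tagged with hashtag B0303 for Tgfbr2-KO or B0301 for control. The pools were then mixed and sequenced as 1 droplet library of 3′ ends. Mice within a pool carry no tag, so there was 1 pool per genotype and no replicate, and no p-value was computed.

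STAT proteins wait in the cytoplasm until JAK kinases at a cytokine receptor phosphorylate them, and then enter the nucleus in pairs. STAT2 joins IRF9 in ISGF3, the complex that carries the type I interferon signal to interferon-stimulated response elements (ISRE), whereas STAT3 serves receptors of the IL-6 and IL-10 families. IRF proteins bind elements of the ISRE kind: IRF1 is an early gene of the interferon-gamma response, IRF2 can compete with it, IRF7 amplifies type I interferon, IRF5 acts below Toll-like receptors, IRF8 is needed for monocytes and for a class of dendritic cells, and IRF4 serves alternatively activated macrophages and another class of dendritic cells. STAT pairs bind the gamma-activated sequence (GAS).

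After filtering, 2674 Tgfbr2-KO cells with 30729204 UMIs (unique molecular identifiers, 1 per captured transcript end) and 1896 control cells with 16298452 UMIs remained, from 4887 called barcodes that were all distinct. The median cell held 10277.5 UMIs in the Tgfbr2-KO pool and 7785 in the control pool, so shares of positive cells are given after each cell was thinned to 3000 UMIs. Levels are UMIs of a gene summed over cells per 1000000 gene UMIs (UPM). A 3′ library gives about 1 UMI per captured transcript whatever its length, and levels are compared between pools or states for the same gene only. All intervals are 95% intervals that cover counting error only, and not differences between mice, sorts or pools. Tgfbr2 itself stood at 195 UPM in the Tgfbr2-KO pool and 215 UPM in the control pool. Tags of the 3′ end may come from outside the deleted stretch, and the value therefore checks nothing about the deletion. Summed levels of marker genes of other cells were 16.6 UPM in Tgfbr2-KO and 9.39 UPM in control for T or NK cells, and 143 UPM in Tgfbr2-KO and 58.4 UPM in control for neutrophils. They were 157 UPM in Tgfbr2-KO and 141 UPM in control for B or plasma cells. Alveolar macrophage markers had 148 UPM in Tgfbr2-KO and 163 UPM in control, and structural cell markers 131 UPM in Tgfbr2-KO and 76.0 UPM in control. By the gene that limits it most, Iglc1, free RNA could account for at most 1.32% of the UMIs of Tgfbr2-KO cells and 0.664% of those of control cells. These bounds rest on 12 Iglc1 UMIs in Tgfbr2-KO cells and 1 in control cells, and they carry no counting interval.

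Cells were placed in states by marker genes. An interferon-activated state, gated on Ly6a, Gbp2, Ly6i and Cxcl9 among C1q-positive cells, held 549 Tgfbr2-KO cells and 9 control cells. A Nos2+ state, also gated among C1q-positive cells, held 32 Tgfbr2-KO cells and 0 control cells. Both pools had at least 50 cells in 6 states. Of these, the Mrc1-low macrophages were the most frequent, with 818 Tgfbr2-KO and 1036 control cells. Mrc1-high macrophages numbered 239 in Tgfbr2-KO and 245 in control, and Lyve1 Folr2 macrophages 322 in Tgfbr2-KO and 200 in control. Fn1-high macrophages numbered 76 in Tgfbr2-KO and 167 in control. Cells low in C1q with classical monocyte markers (Ly6c2, Ccr2, Plac8 and others) numbered 252 in Tgfbr2-KO and 51 in control, and other C1q-low cells 206 in Tgfbr2-KO and 107 in control. The last group had a median of 13197.5 UMIs per Tgfbr2-KO cell and 3382 per control cell, and whether both hold the same kind of cell was not tested. C1q-low cells were not split by the interferon genes, whose sum was 4690 UPM in Tgfbr2-KO and 182 UPM in control classical cells, and 3201 UPM in Tgfbr2-KO and 21.4 UPM in control other C1q-low cells. The same sum differed between the pools in the macrophage gates too. Fn1-high cells had 274 UPM in Tgfbr2-KO and 19.7 UPM in control, and Mrc1-low cells 158 and 32.7 UPM. In the same order, Mrc1-high cells had 153 and 30.9 UPM and Lyve1 Folr2 cells 108 and 30.4 UPM. The part of these genes in the ratios within states was not tested. Sums of other marker lists also differed between the pools within gates. Inside the classical gate the Fn1-high list summed to 693 UPM in Tgfbr2-KO and 4846 UPM in control, the alveolar macrophage list to 231 UPM in Tgfbr2-KO and 1370 UPM in control, and the C1q genes to 165 UPM in Tgfbr2-KO and 496 UPM in control. Neutrophil markers summed to 967 UPM in Tgfbr2-KO and 274 UPM in control there. The classical monocyte list that sets this gate holds Fn1 of the Fn1-high list and Chil3 of the alveolar list. It also holds S100a8 and S100a9 of the neutrophil list, so these sums are not separate from the gate. Inside the Fn1-high gate the classical monocyte list, which holds Fn1, summed to 936 UPM in Tgfbr2-KO and 3233 UPM in control, the patrolling monocyte list to 542 UPM in Tgfbr2-KO and 1049 UPM in control, and the Mrc1-low macrophage list to 34873 UPM in Tgfbr2-KO and 14622 UPM in control. Other C1q-low cells had 179 UPM of Nos2 in Tgfbr2-KO and 1.78 UPM in control. Their Mrc1-low macrophage list summed to 30430 UPM in Tgfbr2-KO and 7429 UPM in control. The Fn1-high list summed to 3538 UPM in Tgfbr2-KO and 1975 UPM in control there, and Mrc1 had 430 UPM in Tgfbr2-KO and 1000 UPM in control. The part of these markers in the ratios given for these gates was not tested.

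The promoters of 4 members are shown because each holds an exact match to an element that STAT or IRF proteins bind. All 9 members matched RefSeq windows on build GRCm38.p6, and the 250 bases before the annotated start were searched on both strands for the ISRE core, which is GAAA, any 2 bases and GAAA, and for the GAS element TTCNNNGAA. Among 32851 windows of that length, 2.98% held the ISRE core and 7.02% held GAS. Each sequence is written 5′ to 3′ on the strand of its gene, and the capitals mark the matches.
Irf1, chr11:53769764-53770013, plus strand: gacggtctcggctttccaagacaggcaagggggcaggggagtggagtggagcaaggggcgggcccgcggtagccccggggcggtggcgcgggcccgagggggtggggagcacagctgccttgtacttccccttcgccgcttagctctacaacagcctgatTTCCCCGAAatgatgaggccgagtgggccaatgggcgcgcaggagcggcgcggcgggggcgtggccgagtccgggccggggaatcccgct
Irf8, chr8:120736108-120736357, plus strand: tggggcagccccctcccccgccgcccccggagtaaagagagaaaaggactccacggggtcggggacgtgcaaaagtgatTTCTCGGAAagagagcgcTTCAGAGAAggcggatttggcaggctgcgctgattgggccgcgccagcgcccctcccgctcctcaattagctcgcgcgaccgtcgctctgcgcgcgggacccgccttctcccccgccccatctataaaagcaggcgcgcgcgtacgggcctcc
Stat2, chr10:128270248-128270497, plus strand: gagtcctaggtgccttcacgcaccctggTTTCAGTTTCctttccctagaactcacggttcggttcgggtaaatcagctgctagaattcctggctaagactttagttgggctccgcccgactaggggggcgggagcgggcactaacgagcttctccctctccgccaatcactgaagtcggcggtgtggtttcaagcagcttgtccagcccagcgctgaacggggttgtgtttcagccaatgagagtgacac
Irf2, chr8:46739495-46739744, plus strand: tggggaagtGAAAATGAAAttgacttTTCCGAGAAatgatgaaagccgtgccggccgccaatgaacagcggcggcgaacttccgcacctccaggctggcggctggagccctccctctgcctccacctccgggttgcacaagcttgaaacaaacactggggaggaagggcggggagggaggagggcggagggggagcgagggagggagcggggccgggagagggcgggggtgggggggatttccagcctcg
The Irf1 window held 1 GAS match, 90 to 82 bases before the start, and the Irf8 window held 2, from bases 171 and 153 before the start. Stat2 held 1 ISRE core, on the opposite strand, 222 to 213 bases before the start. Irf2 held both elements, the ISRE core 241 to 232 and GAS 224 to 216 bases before the start. The windows at the second annotated starts of Irf1 and Irf8 and those of Stat3, Irf4, Irf5, Irf7 and Irf9 held neither string of letters, which says nothing of elements elsewhere or of other spelling. The only Irf5 window, chr6:29526375-29526624, lay inside the gene span given below, so the bases before that span were not searched. The Stat3 and Irf7 windows partly overlapped the spans of their genes. A match describes the sequence and is not a measured site.

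Over all cells, the members divided into 5 that were at least 1.5-fold higher in the Tgfbr2-KO pool, 3 with ratios of 0.994 to 1.251, and Irf4, which was lower. Counting required 100 UMIs in the 2 pools together and a level of 100 UPM in either, and a call required a 1.5-fold difference. By this rule 6 members were counted, of which 3, Irf1, Irf7 and Irf8, were called higher and 0 lower. Each of these 3 reached 100 UPM in the Tgfbr2-KO pool only, so the count is a description and not a test. Of all 1736 counted genes, 11.4% were called higher and 9.27% lower. That split of 198 higher and 161 lower genes was 160 and 198 with TMM scaling and 155 and 203 with DESeq2 size factors, while the members called stayed Irf1, Irf7 and Irf8. Stat2, Irf4 and Irf9 lay under 100 UPM in both pools, so they are given as values outside the count. The median log2 ratio was 1.05 over the 9 members and 0.05 over all counted genes. The first median includes the uncounted Stat2, Irf4 and Irf9, so the medians cover unlike sets of genes.

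**Figure D1:**
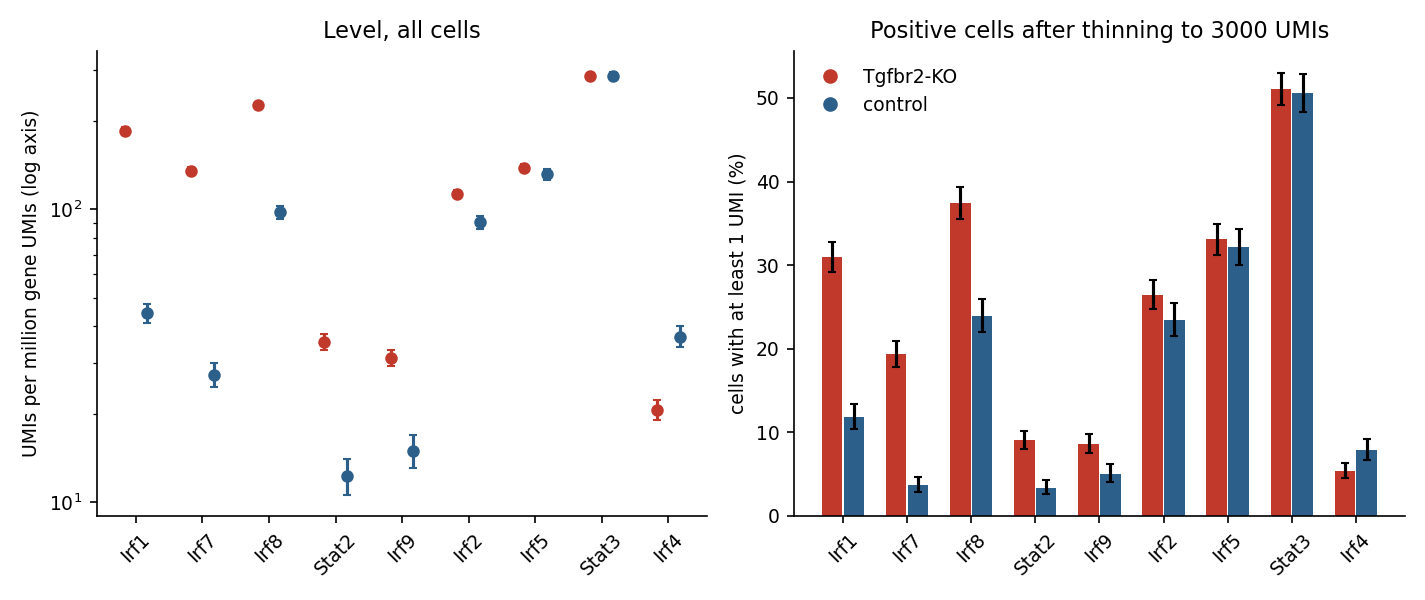
The left panel gives the summed level of each gene in UPM on a log axis over all cells, and the right panel the share of cells with at least 1 UMI after thinning to 3000 UMIs, each with a 95% counting interval, for the Tgfbr2-KO pool (left of each pair, red) and the control pool (blue). Irf1 at 186 UPM in Tgfbr2-KO and 44.2 UPM in control and Irf7 at 135 UPM in Tgfbr2-KO and 27.3 UPM in control stand farthest apart, and the Stat3 values at 285 UPM in Tgfbr2-KO and 286 UPM in control overlap.

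Irf1 (ENSMUSG00000018899, chromosome 11, 53770014 to 53778374), the early gene of the interferon-gamma response, was higher in every state compared. Over all cells it stood at 186 UPM (181 to 191) in the Tgfbr2-KO pool and 44.2 UPM (41.0 to 47.5) in the control pool, 4.20-fold higher (3.89 to 4.55). It was found in 31.0% of thinned Tgfbr2-KO cells (29.2 to 32.8) and 11.8% of thinned control cells (10.4 to 13.4). Positive cells held 3.77 Irf1 UMIs on average in Tgfbr2-KO and 1.55 in control without thinning. Both the thinned share of positive cells and the unthinned UMIs in each were thus higher in Tgfbr2-KO. The pools differ in depth, and its part in the UMIs per positive cell was not tested. The level was 117 UPM in Tgfbr2-KO and 39.7 UPM in control Mrc1-low macrophages, 2.94-fold higher (2.59 to 3.35). Mrc1-high macrophages gave 134 UPM in Tgfbr2-KO and 40.3 UPM in control, 3.33-fold higher (2.58 to 4.34). Fn1-high macrophages gave 190 UPM in Tgfbr2-KO and 53.8 UPM in control, 3.53-fold higher (2.83 to 4.43). The smallest ratio was that of Lyve1 Folr2 macrophages, the perivascular kind, at 109 UPM in Tgfbr2-KO and 58.6 UPM in control, 1.85-fold higher (1.48 to 2.33). In classical C1q-low cells it was 206 UPM in Tgfbr2-KO and 26.3 UPM in control, 7.85-fold higher (4.64 to 14.4), with 14 UMIs on the control side. Other C1q-low cells gave 246 UPM in Tgfbr2-KO and 24.9 UPM in control, 9.88-fold higher (5.85 to 18.2), again with 14 control UMIs. No Tgfbr2-KO interval overlapped a control interval in any of these states: the lowest Tgfbr2-KO level, in Lyve1 Folr2 macrophages, still lay above the highest control level, in the same state. In the order of levels, other C1q-low and interferon-activated Tgfbr2-KO cells came first, at 246 and 237 UPM with overlapping intervals, and the Nos2+ cells, too few to be ranked, had 529 UPM (471 to 591).

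Irf7 (ENSMUSG00000025498, chromosome 7, 141263183 to 141266499), the amplifier of type I interferon, had the largest ratio over all cells but a different pattern over states. It stood at 135 UPM (131 to 139) in the Tgfbr2-KO pool and 27.3 UPM (24.8 to 29.96) in the control pool, 4.94-fold higher (4.48 to 5.46). Thinned cells with Irf7 made up 19.3% of the Tgfbr2-KO pool (17.8 to 20.9) and 3.63% of the control pool (2.82 to 4.60). The UMIs were held by few control cells. In the control pool 14 of 1896 cells carried at least as many Irf7 UMIs as all other control cells together, against 155 of 2674 cells in the Tgfbr2-KO pool. Among the 6 states compared, classical C1q-low cells had the highest level in both pools, at 510 UPM (484 to 537) in Tgfbr2-KO and 391 UPM (340 to 448) in control, 1.31-fold higher (1.13 to 1.52). The control value rested on 208 UMIs in 26 of 51 cells, 33 of them in 1 cell, and the ratio was 1.48 without the top cell of each pool. With all gate thresholds halved the log2 ratio there was -0.11, so its direction depends on the gate. Macrophages differed more. In Fn1-high cells Irf7 had 85.4 UPM in Tgfbr2-KO and 3.50 UPM in control, 24.4-fold higher (11.9 to 58.0), with UMIs in 28 of 76 Tgfbr2-KO cells and 7 of 167 control cells, in the gate whose monocyte and Mrc1-low marker sums differ between the pools. Lyve1 Folr2 cells gave 31.4 UPM in Tgfbr2-KO and 7.05 UPM in control, 4.45-fold higher (2.47 to 8.67). Mrc1-high cells gave 38.7 UPM in Tgfbr2-KO and 11.0 UPM in control, 3.53-fold higher (2.17 to 5.99). Mrc1-low cells gave 35.7 UPM in Tgfbr2-KO and 15.2 UPM in control, 2.35-fold higher (1.90 to 2.94). In other C1q-low cells Irf7 had 97.6 UPM in Tgfbr2-KO and 5.34 UPM in control, a ratio of 18.3 (6.19 to 89.3) on 3 control UMIs. Irf7 thus had low levels in the 4 control macrophage states with at least 50 cells and high levels in classical monocyte-like cells of both pools, and the interferon-activated Tgfbr2-KO macrophages lay between, at 194 UPM (185 to 204). Clusters in place of gates gave a wider spread: Irf7 was at least 1.5-fold higher in 5 of 8 clusters and at least 1.5-fold lower in 1, which held 394 Tgfbr2-KO cells at 86.7 UPM and 50 control cells at 147 UPM.

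Irf8 (ENSMUSG00000041515, chromosome 8, 120736358 to 120756694), the monocyte and dendritic cell factor, had its highest ranked level in interferon-activated cells. Over all cells it stood at 227 UPM (222 to 232) in the Tgfbr2-KO pool and 97.6 UPM (92.9 to 103) in the control pool, 2.32-fold higher (2.20 to 2.46). Irf8 was detected in 37.4% of thinned Tgfbr2-KO cells (35.6 to 39.3) and 23.9% of thinned control cells (21.95 to 25.9). Interferon-activated Tgfbr2-KO cells had 341 UPM (328 to 354), above every ranked state, and the Nos2+ cells had 575 UPM (515 to 639). Control levels lay in a narrow band, from 71.2 UPM in other C1q-low cells to 115 UPM in Lyve1 Folr2 macrophages. Of the 4 macrophage states compared, 1 reached 1.5-fold. Lyve1 Folr2 cells had 136 UPM in Tgfbr2-KO and 115 UPM in control, a ratio of 1.18 (0.999 to 1.40) whose interval holds 1. Mrc1-low cells had 128 UPM in Tgfbr2-KO and 101 UPM in control, 1.27-fold higher (1.16 to 1.40). Mrc1-high cells had 160 UPM in Tgfbr2-KO and 107 UPM in control, a ratio of 1.4996 (1.26 to 1.79) that lay just under the threshold, and a log2 ratio of 0.15 with gate thresholds halved. Fn1-high cells had 143 UPM in Tgfbr2-KO and 71.3 UPM in control, 2.004-fold higher (1.61 to 2.49). The C1q-low cells differed most, with 270 UPM in Tgfbr2-KO and 82.7 UPM in control for classical cells, 3.27-fold higher (2.41 to 4.54), and 270 UPM in Tgfbr2-KO and 71.2 UPM in control for the others, 3.80-fold higher (2.76 to 5.36). The classical gate is the one with lower alveolar and Fn1-high marker sums and a higher neutrophil sum in Tgfbr2-KO. Those lists share genes with the gate, and their part in its ratio was not tested.

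**Figure D2:**
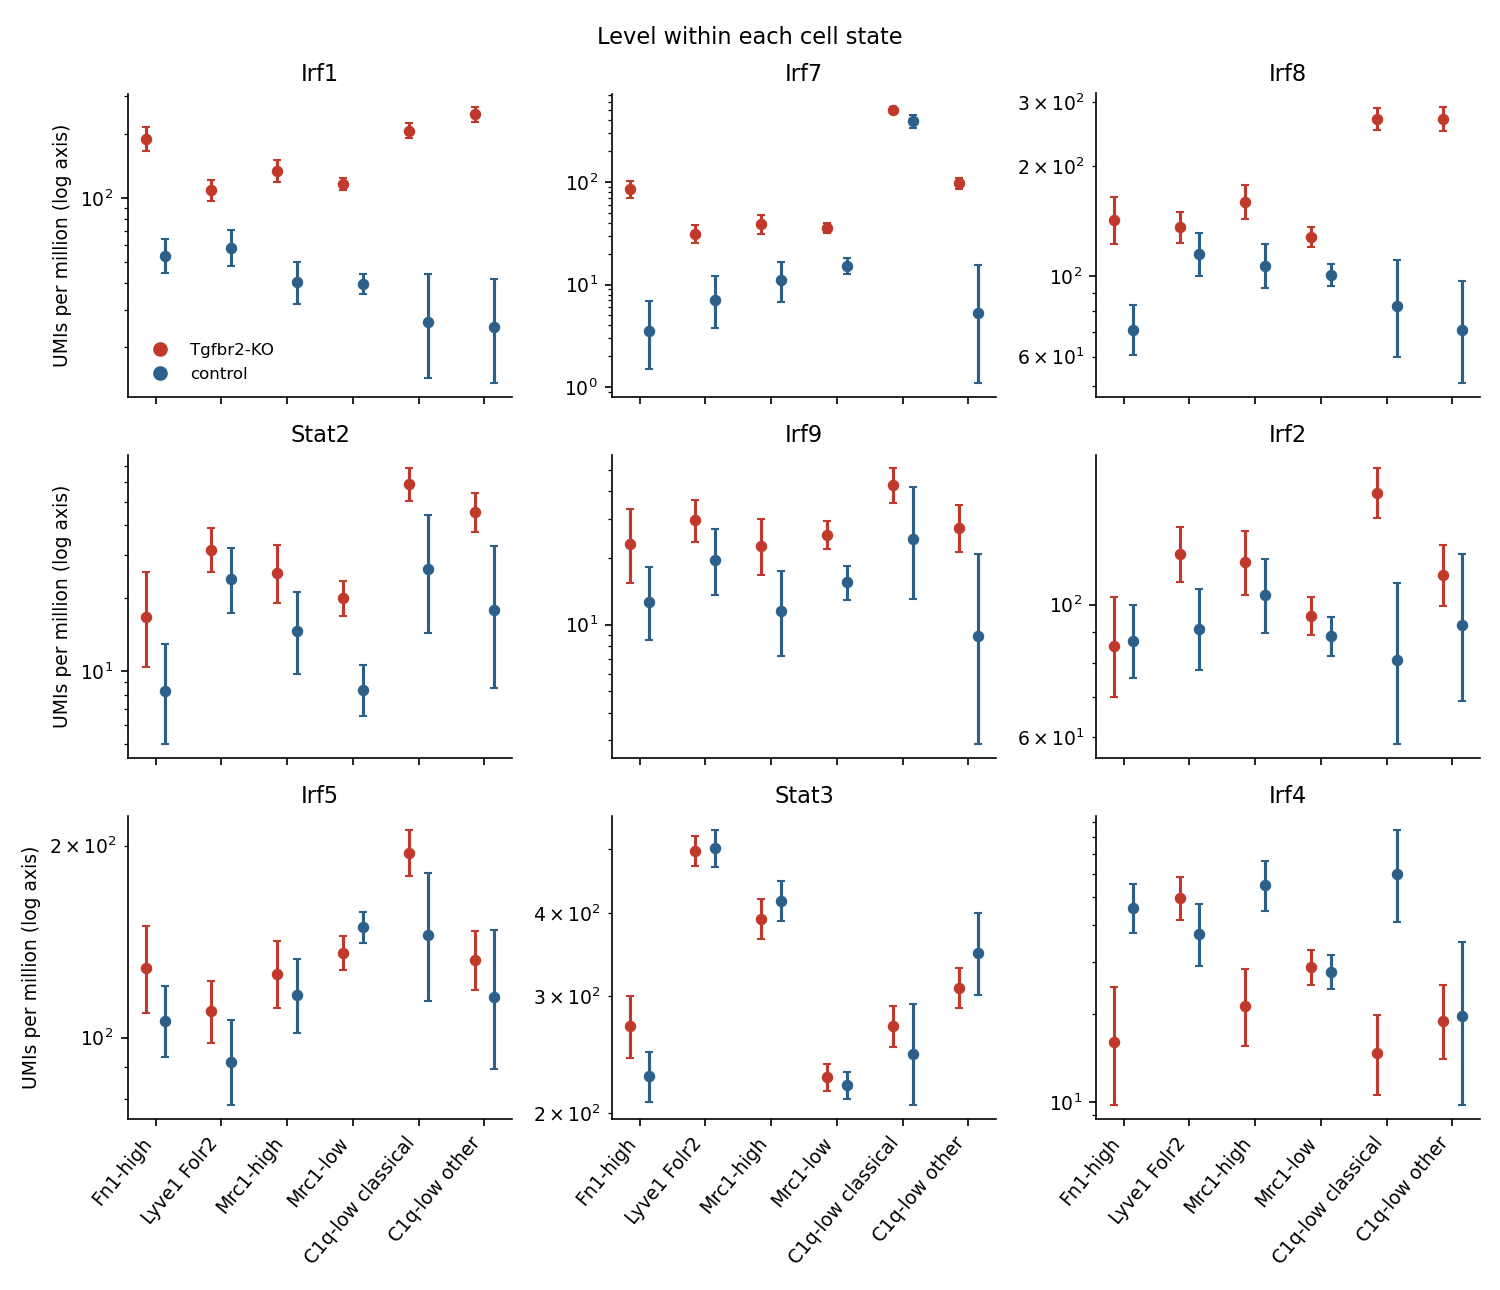
Each panel gives 1 gene, with its level in UPM on a log axis and a 95% Poisson interval in each of the 6 states with at least 50 cells per pool, the Tgfbr2-KO pool (red) left of the control pool (blue). Irf1 intervals are apart in all 6 states, Irf7 is high in classical C1q-low cells of both pools at 510 UPM in Tgfbr2-KO and 391 UPM in control, Stat3 pairs lie close together, and Irf4 is lower in Tgfbr2-KO in 3 states.

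Stat2 and Irf9, the partners in ISGF3, were both higher at low levels. Stat2 (ENSMUSG00000040033, chromosome 10, 128270498 to 128292853) stood at 35.3 UPM (33.2 to 37.5) in the Tgfbr2-KO pool and 12.3 UPM (10.6 to 14.1) in the control pool, 2.88-fold higher (2.47 to 3.36). It was in 9.03% of thinned Tgfbr2-KO cells and 3.36% of thinned control cells. The ratio was at least 1.5 in 5 of 6 states, from 1.73 (1.08 to 2.84) in Mrc1-high to 2.54 (1.33 to 5.43) in other C1q-low cells. Lyve1 Folr2 macrophages were the exception, at 31.7 UPM in Tgfbr2-KO and 23.9 UPM in control, a ratio of 1.33 (0.918 to 1.95) whose interval holds 1. Irf9 (ENSMUSG00000002325, chromosome 14, 55603985 to 55610030) stood at 31.0 UPM (29.1 to 33.1) in the Tgfbr2-KO pool and 14.97 UPM (13.15 to 16.97) in the control pool, 2.07-fold higher (1.80 to 2.40). Its ratio was at least 1.5 in all 6 states, between 1.52 (1.02 to 2.31) in Lyve1 Folr2 and 3.08 (1.26 to 9.78) in other C1q-low cells. The control counts behind the 6 ratios were 5 to 126 UMIs, and the interval of classical cells, 0.981 to 3.36, holds 1. After thinning, Irf9 was at least 1.5-fold higher in 2 of the 6 states, with a median log2 ratio of 0.46, and at gate thresholds raised 1.5 times in 4. Clusters in place of gates gave 4 of 8. The thinned Irf9 ratio no longer lay above 1 in Fn1-high and classical cells, with log2 values of -0.03 and -0.16. Stat2 levels ran from 58.9 UPM in classical Tgfbr2-KO cells down to 8.31 UPM in Fn1-high control cells, and 12 of the 13 neighbouring pairs in the order had overlapping intervals.

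Irf2, Irf5 and Stat3 differed little. Irf2 (ENSMUSG00000031627, chromosome 8, 46739745 to 46847458), the competitor of Irf1, stood at 113 UPM (109 to 117) in Tgfbr2-KO and 90.4 UPM (85.8 to 95.1) in control, 1.251-fold higher (1.18 to 1.33). Its ratio passed 1.5 in 1 state, the classical C1q-low cells, with 154 UPM in Tgfbr2-KO and 80.8 UPM in control, 1.90-fold higher (1.39 to 2.67). In the 5 other states it ran from 0.981 in Fn1-high to 1.33 in Lyve1 Folr2 macrophages. Irf5 (ENSMUSG00000029771, chromosome 6, 29526130 to 29541869), the factor below Toll-like receptors, stood at 139 UPM (134 to 143) in Tgfbr2-KO and 132 UPM (126 to 137) in control, a ratio of 1.05 (0.9999 to 1.11). Over states its ratio ran from 0.912 (0.838 to 0.992) in Mrc1-low macrophages to 1.35 (1.06 to 1.73) in classical cells, with 195 UPM in Tgfbr2-KO and 145 UPM in control. Stat3 (ENSMUSG00000004040, chromosome 11, 100886806 to 100939594), the IL-6 and IL-10 factor, stood at 285 UPM (279 to 291) in Tgfbr2-KO and 286 UPM (278 to 295) in control, a ratio of 0.994 (0.960 to 1.03). Stat3 was in 51.1% of thinned Tgfbr2-KO cells and 50.6% of thinned control cells. Stat3 levels differed more between states than between pools. Lyve1 Folr2 macrophages had 496 UPM (471 to 522) in Tgfbr2-KO and 501 UPM (469 to 535) in control, apart from every other ranked state, and Mrc1-high macrophages followed with 392.4 UPM in Tgfbr2-KO and 417 UPM in control. Mrc1-low macrophages had 227 UPM in Tgfbr2-KO and 221 UPM in control. The 6 ratios of Stat3 ran from 0.886 (0.757 to 1.04) to 1.19 (1.03 to 1.37).

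Irf4 (ENSMUSG00000021356, chromosome 13, 30749233 to 30766981), the factor of alternatively activated macrophages, was the only member lower over all cells by 1.5-fold or more. It stood at 20.6 UPM (19.1 to 22.3) in the Tgfbr2-KO pool and 36.8 UPM (33.9 to 39.9) in the control pool, 1.78-fold lower (1.59 to 1.998). Thinned cells with Irf4 were 5.40% of the Tgfbr2-KO pool (4.56 to 6.34) and 7.87% of the control pool (6.68 to 9.21). The share of positive cells differed less than the level, and 1 control cell held 41 of the 600 control UMIs. With each cell weighted alike the log2 ratio was -0.41, after thinning -0.43, and per cell -0.42, all short of 1.5-fold. Without the interferon-activated and Nos2+ cells it was -0.55. Within states, Irf4 was at least 1.5-fold lower in 3 of 6. Classical C1q-low cells had 14.6 UPM in Tgfbr2-KO and 60.1 UPM in control, 4.11-fold lower (2.51 to 6.66), with 32 control UMIs in 9 cells, in the gate whose alveolar and Fn1-high marker sums are higher in control. Fn1-high macrophages had 16.0 UPM in Tgfbr2-KO and 45.9 UPM in control, 2.88-fold lower (1.77 to 4.90), with Irf4 in 10 of 76 Tgfbr2-KO cells and 50 of 167 control cells. Mrc1-high macrophages had 21.2 UPM in Tgfbr2-KO and 54.9 UPM in control, 2.59-fold lower (1.81 to 3.75). One cell held 41 of the 105 control UMIs there, Irf4 was in 24 of 239 Tgfbr2-KO cells and 28 of 245 control cells, and the ratio was 0.521 without the top cell of each pool. With gate thresholds raised 1.5 times the log2 ratio was 1.01, so this value depends on where the gate lies. Mrc1-low macrophages had 28.8 UPM in Tgfbr2-KO and 27.7 UPM in control, a ratio of 1.04 (0.859 to 1.26). Lyve1 Folr2 macrophages had 49.6 UPM in Tgfbr2-KO and 37.4 UPM in control, a ratio of 1.33 (0.988 to 1.79). The lowest ranked level was that of interferon-activated Tgfbr2-KO cells, at 8.43 UPM (6.56 to 10.7).

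Read against all genes, the counted members within states divided as follows. In Fn1-high cells 2 of 4 counted members were at least 1.5-fold higher and 0 lower, where 11.7% of all counted genes were higher and 15.3% lower. In Lyve1 Folr2 cells 1 of 5 was higher and 0 lower, against 4.2% of genes higher and 6.07% lower. Mrc1-high cells had 1 of 5 higher and 0 lower, against 6.19% of genes higher and 6.55% lower. Mrc1-low cells had 1 of 4 higher and 0 lower, against 4.66% higher and 2.26% lower. In classical C1q-low cells 3 of 6 were higher and 0 lower, against 16.1% higher and 17.4% lower, and in other C1q-low cells 2 of 5 were higher and 0 lower, against 21.2% higher and 33.1% lower. The gene higher in every one of these states was Irf1.

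The pools differ in their mix of states, so each member was also computed with the same weights on the 6 states in both pools. Irf1 then had 141 UPM in Tgfbr2-KO and 41.0 UPM in control, 3.43-fold higher, against 4.20 without this step. Irf7 moved most, to 81.9 UPM in Tgfbr2-KO and 41.9 UPM in control, 1.95-fold higher, with 2.53 under the control mix and 1.74 under the Tgfbr2-KO mix. Stat2 was 2.01-fold, Irf9 1.74-fold and Irf8 1.61-fold higher at the common mix, with 1.4986 for Irf8 under the control mix. Irf2 at 1.19, Irf5 at 1.03 and Stat3 at 1.002 lay near 1, and Irf4 had 27.9 UPM in Tgfbr2-KO and 35.7 UPM in control, a ratio of 0.781. The interferon-activated and Nos2+ cells, nearly all from Tgfbr2-KO mice, do not enter these values.

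To follow the members across the interferon response, C1q-positive cells outside the proliferating gate were ordered by their summed level of Ly6a, Gbp2, Ly6i and Cxcl9, none of which is a member. The 32 Nos2+ Tgfbr2-KO cells are included, and their part in the series below was not tested. Among cells with none of these UMIs (927 Tgfbr2-KO cells of median depth 7623 UMIs and 1376 control cells of 7547.5), Irf1 still had 103 UPM in Tgfbr2-KO and 44.2 UPM in control, 2.34-fold higher (2.09 to 2.62). In the same cells Stat2 was 2.16-fold higher (1.68 to 2.78), Irf7 1.98-fold (1.46 to 2.69) and Irf9 1.71-fold (1.38 to 2.13). Irf8 was 1.26-fold higher there (1.15 to 1.37), Stat3 1.22-fold (1.15 to 1.28), and Irf4 had a ratio of 0.954 (0.812 to 1.12). In the second bin Stat2 had a ratio of 1.33 (0.861 to 2.09) and Irf9 one of 1.45 (0.969 to 2.19), and both intervals hold 1. In the third, Stat2 had 30.4 UPM in Tgfbr2-KO and 35.6 UPM in control and Irf9 had 28.7 UPM in Tgfbr2-KO and 26.1 UPM in control, the control values on 15 and 11 UMIs. Across the 5 bins of rising interferon genes, Irf1 in Tgfbr2-KO cells had 103, 146, 154, 220 and 290 UPM, and in the 3 control bins with at least 50 cells it had 44.2, 46.1 and 45.1 UPM. Control Irf1 stayed between 44.2 and 46.1 UPM, the last bin resting on 19 UMIs, whereas control Irf7 had 6.78, 16.1 and 119 UPM, next to 13.4, 37.3, 97.2, 143 and 235 UPM in Tgfbr2-KO. The intervals of Irf7 in the third bin overlapped between the pools, at 87.3 to 108 UPM in Tgfbr2-KO and 88.1 to 156 UPM in control, where it rested on 50 UMIs. Irf8 in Tgfbr2-KO cells had 122, 127, 172, 256 and 450 UPM. Irf4 ran the other way, with 33.7, 38.0, 18.9, 12.3 and 6.12 UPM, and Stat3 had 344, 284, 268, 240 and 222 UPM. In the 3 control bins Irf8 had 97.1, 98.0 and 145 UPM, Irf4 had 35.4, 41.0 and 11.9 UPM, the last from 5 UMIs, and Stat3 had 283, 294 and 283 UPM. The median depth of Tgfbr2-KO cells was also higher in each bin than in the one before, ending at 14970 UMIs, and its part in these series was not tested.

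**Figure D3:**
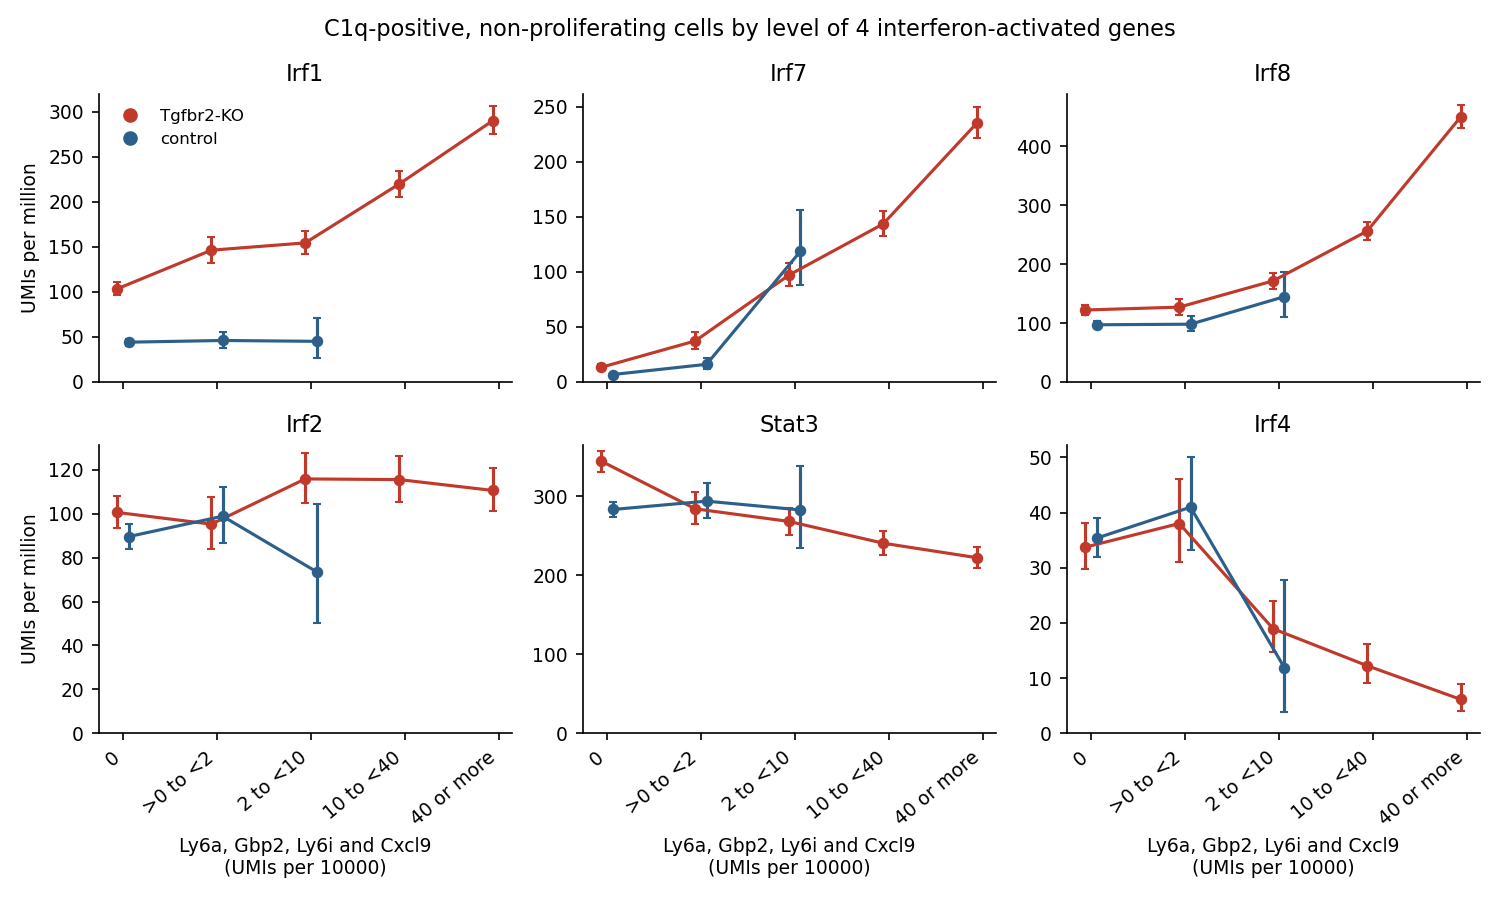
C1q-positive, non-proliferating cells are divided along the x axis by UMIs of Ly6a, Gbp2, Ly6i and Cxcl9 per 10000, and the y axis gives UPM with 95% Poisson intervals for 6 genes in Tgfbr2-KO (red) and control (blue) bins of at least 50 cells. Nos2+ cells are included. Irf1 in Tgfbr2-KO lies above control in each shared bin and reaches 290 UPM, Irf8 reaches 450 UPM, and Irf4 ends at 6.12 UPM.

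The number of members found together also differed. A thinned cell had UMIs of 2.21 of the 9 members on average in Tgfbr2-KO and 1.62 in control, and 16.9% of Tgfbr2-KO cells and 5.23% of control cells held 4 or more. Among thinned Tgfbr2-KO cells of all states, Irf8 was in 44.8% of cells with Irf1 and 34.2% of cells without it. Among control cells of all states it was in 26.0% of cells with Irf1 (56 of 215) and 23.6% without. The part of the mix of states in these shares was not tested. Irf4 and Irf8 are given within a single state, so their shares are not set against those of Irf1 and Irf8. In Mrc1-low macrophages Irf8 was in 9.84% of Irf4-positive Tgfbr2-KO cells (6 of 61) and 30.8% of Irf4-negative ones, and in 17.7% of Irf4-positive control cells (11 of 62) and 25.1% of Irf4-negative ones. These shares are descriptions of sparse counts. By the Iglc1 bounds given above, free RNA could give a member to at most 0.904% of thinned Tgfbr2-KO cells and 0.454% of control cells, the values of Stat3.

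Over 14 groups, each a state in a pool with at least 50 cells, the log2 levels of Irf1 and Irf8 ran most alike among the members (Pearson r = 0.88), followed by Irf7 and Irf9 (0.82). Irf4 ran against Irf1 (-0.68) and Irf8 (-0.68). Among 5177 genes, those most like Irf7 were Rtp4 (0.98), Xaf1 (0.97) and Oas1a (0.97), and those most like Irf1 were Tor2a (0.97), H2-K1 (0.93) and Serpina3g (0.92). Slamf8, C3 and Cxcl9 were most like Irf8, Rnf213, Mnt and Ifi47 most like Stat2, and Glrx, Themis2 and Psmb9 most like Irf9. For Stat3 they were Rp2, Eif1a and Runx1, for Irf2 Klhl5, Cdc26 and Tmem192, for Irf5 Rpl38, Rpl34 and Ndufa6, and for Irf4 Lars2, Myo18a and Gphn. All 14 groups come from 1 library and share the 2 pools, so these correlations are descriptions.

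The genes around the 9 factors were read from lists chosen by role, beside the 11.4% of all counted genes called higher and 9.27% called lower over all cells. Above the factors stand receptors and kinases, of which 8 of 13 were counted and 0 were called in either direction, with a median log2 ratio of -0.08. Jak1, which serves both interferon receptors, had 281 UPM in Tgfbr2-KO and 319 UPM in control, and the interferon-gamma receptor gene Ifngr1 had 184 UPM in Tgfbr2-KO and 185 UPM in control. Of 11 inhibitors 5 were counted, and 1 was higher, the phosphatase gene Ptpn6 at 201 UPM in Tgfbr2-KO and 95.3 UPM in control, 2.11-fold. Under the minimum, the JAK inhibitor Socs1 had 32.4 UPM in Tgfbr2-KO and 14.1 UPM in control and the ISG15 protease Usp18 had 17.9 UPM in Tgfbr2-KO and 7.85 UPM in control, whereas Socs3, a STAT3 target and inhibitor, had 388 UPM in Tgfbr2-KO and 544 UPM in control. Of 15 genes that activate IRF5 and IRF7, 1 was counted, the adaptor gene Traf3 at 257 UPM in Tgfbr2-KO and 226 UPM in control. Of 8 other genes of the families 1 was counted, Irf2bp2 at 183 UPM in Tgfbr2-KO and 168 UPM in control, and it was not called.

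The other lists, of targets and of genes linked to IRF4 or IRF8, differed. In the list of 20 interferon-gamma and IRF1 targets 12 were counted and all 12 were called higher. Their median log2 ratio was 1.76, and they include the chemokine gene Cxcl9 at 1539 UPM in Tgfbr2-KO and 43.0 UPM in control and the peptide transporter gene Tap1 at 168 UPM in Tgfbr2-KO and 32.4 UPM in control. Cxcl9 and Gbp2 of this list also gate the interferon-activated state. Of 20 ISGF3 targets, 18 were in the matrix and 2 were counted, Zbp1, 8.26-fold higher, and Rsad2, 7.49-fold higher. The 16 under the minimum had ratios between 1.72 and 7.28. Of 15 STAT3 targets, 10 were counted and 2 were higher, Hif1a 2.06-fold and Nfil3 1.58-fold, with a median log2 ratio of -0.20 over the 10. Of 10 genes in the matrix linked to IRF4 in alternatively activated cells and dendritic cells, 4 were counted. Whether these genes depend on IRF4 was not tested. Retnla, a gene of alternative activation, was 5.18-fold higher, at 977 UPM in Tgfbr2-KO and 189 UPM in control. The histone demethylase gene Kdm6b was lower, at 558 UPM in Tgfbr2-KO and 882 UPM in control. The 6 others lay under the minimum and went both ways. Pdcd1lg2, which encodes the checkpoint ligand PD-L2, had 32.2 UPM in Tgfbr2-KO and 1.35 UPM in control, 23.9-fold higher (15.7 to 38.3). Cd209a had 17.8 UPM in Tgfbr2-KO and 49.3 UPM in control, Ccl17 had 29.6 UPM in Tgfbr2-KO and 50.9 UPM in control, and the ratios of Ccl22, Chil3 and Arg1 were 0.679, 0.495 and 0.170. Of 12 partners of IRF8, 9 were counted, 0 were higher and 1 was lower, Id2 at 372 UPM in Tgfbr2-KO and 566 UPM in control. That 1 of 9 lies near the 9.27% of all counted genes. Spi1, which encodes the IRF8 partner PU.1, had 391.7 UPM in Tgfbr2-KO and 296 UPM in control. Within the abundant Mrc1-low macrophages, where 4.66% of all counted genes were called higher and 2.26% lower, 3 of 6 counted interferon-gamma and IRF1 targets were called higher and 0 of 9 counted STAT3 targets were called. The 18 ISGF3 targets all lay under the minimum there, with ratios of 1.22 to 5.63. Zbp1 was among them, at 38.5 UPM in Tgfbr2-KO and 11.2 UPM in control.

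**Figure D4:**
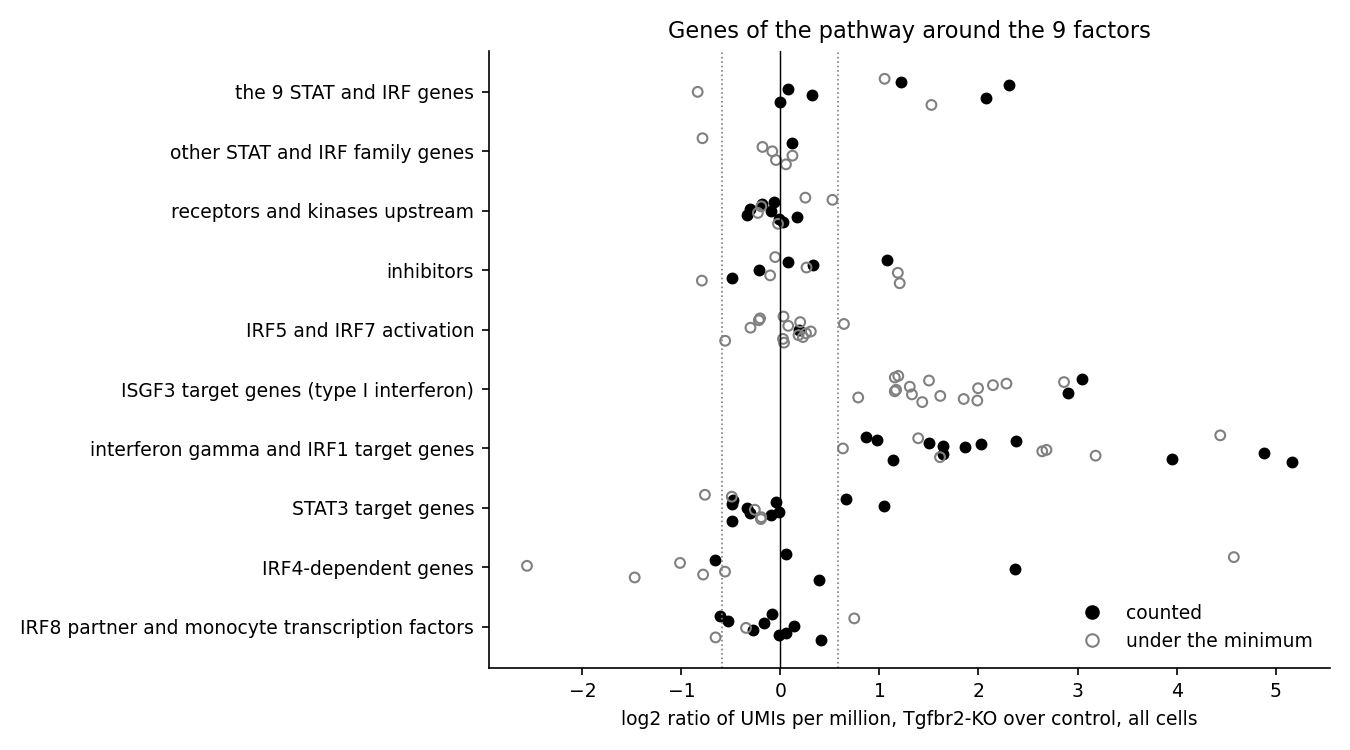
Points are genes with UMIs in both pools, placed by the log2 ratio of UPM in Tgfbr2-KO over control over all cells, with the 9 members on top and the lists by role below, filled where the gene was counted, and dotted lines at 1.5-fold. Receptors and kinases lie between the dotted lines, and all 12 filled interferon-gamma and IRF1 targets lie to the right of them.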

How the data were processed

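One single-cell RNA library and 1 hashtag library were used. Per the labels, both came from the same mixed cells, with Cell Ranger 8.0, Seurat 5.1.0 and build GRCm38 listed in the submitters' processing notes. The deposited matrix holds UMI counts per gene and barcode as whole numbers. Per the file headers, the deposited hashtag table gives the fraction of posterior probability of each assignment and log10 hashtag counts, which matched the matrix.

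Cells assigned to 1 hashtag were kept with at least 1000 UMIs, 500 genes and at most 10% mitochondrial UMIs, which removed 101. The 96 hashtag multiplets were left out, and doublets within a pool cannot be seen. Cells were gated on summed UMIs of marker lists per 10000 (C1q 15, proliferating 10, classical monocyte 20, interferon-activated 10, Fn1-high 15, Lyve1 Folr2 15, Mrc1 10, Nos2 2), with thresholds set on the marker values. Near the interferon threshold, within 1.25-fold, lay 109 Tgfbr2-KO and 6 control cells, and near the Mrc1 threshold 244 Tgfbr2-KO and 194 control cells. Intervals are exact: Clopper-Pearson for shares, Poisson for levels and the conditional binomial for ratios (scipy 1.17.1). The call rule was checked on simulated counts. The members and lists were chosen with earlier results of these data known. All 9 members are named, and likeness lists name the 3 genes of highest correlation. Genes of the lists by role were picked for naming by role and value. Scaling alternatives used edgeR 4.0.16 and DESeq2 1.42.0.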

Additional observations from a re-analysis of the deposited data

Results flagged for a closer look

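Irf5 stood out because its ratio lay above 1 in one state and below 1 in another, each by its counting interval. The log2 ratio of Tgfbr2-KO over control was 0.43 in classical C1q-low cells and -0.13 in Mrc1-low macrophages. Neither reached 1.5-fold, each state has 1 pool per genotype, and the difference between the states was not tested. After thinning, the log2 ratio in Mrc1-low macrophages was 0.02.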

How the results depend on the processing

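No paired analysis was possible because each genotype is 1 pool with no replicate. Under 10 alternatives chosen at the outset, 3 counted members were at least 1.5-fold higher over all cells and 0 lower. Of 4 alternatives added after seeing the data, 3 allow this count. Of these, leaving out more gates or the proliferating cells gave 3 and UMIs per cell in place of UPM gave 4, since Irf2 then reached a log2 ratio of 0.74. That scale moves the median of all counted genes to a log2 ratio of 0.50. Over these 14 alternatives Irf1, Irf7, Irf8, Stat2 and Irf9 stayed at least 1.5-fold higher over all cells, with lowest log2 ratios of 1.72, 2.19, 0.73, 1.32 and 0.84, and Irf4 reached 1.5-fold lower in 9. With clusters in place of gates, Irf8 was at least 1.5-fold higher in 3 of 8 and above 1 in 7. Its median log2 ratio was 0.33 there, against 0.79 over gates, and its lowest was -0.20. Stat2 was at least 1.5-fold higher in 5 of 8 clusters and above 1 in 7. Within states, 3 called values changed sign: Irf4 in Mrc1-high cells at raised gates (1.01), and Irf9 after thinning in Fn1-high (-0.032) and classical C1q-low cells (-0.16). Thinning also left Irf9 at least 1.5-fold higher in 2 of 6 states, against 6, Stat2 in 4, against 5, and Irf4 at least 1.5-fold lower in 2, against 3. In all, 65 of 451 recomputed values moved past the error or margin set for them. The causes were not tested. Without a minimum on counts, 15.4% of genes were at least 1.5-fold lower over all cells, against 9.27%. Low counts limit Stat2, Irf4 and Irf9, the number of cells, 51, limits classical C1q-low control values, and a median of 3382 UMIs per cell limits those of other C1q-low control cells.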

Other observations

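States with fewer than 50 cells in a pool entered no comparison, and their values are given as they stand. C1q-low cells with dendritic cell markers numbered 15 in Tgfbr2-KO and 14 in control. Irf8 had 567 UPM (466 to 683) in the Tgfbr2-KO and 178 UPM (119 to 258) in the control cells, while Irf4 had 41.2 UPM (17.8 to 81.3) in the Tgfbr2-KO and 229 UPM (161 to 318) in the control cells. IRF8 and IRF4 are known to serve different classes of conventional dendritic cells. C1q-low cells with patrolling monocyte markers numbered 24 in Tgfbr2-KO and 14 in control, and Stat3 stood there at 456 UPM (369 to 556) in Tgfbr2-KO and 848 UPM (653 to 1083) in control, the highest control level of Stat3 in any state. Proliferating cells, 129 in Tgfbr2-KO and 46 in control, had 161 UPM of Irf1 in Tgfbr2-KO and 37.4 UPM in control. In the interferon-activated gate Irf7 had 194 UPM (185 to 204) in the 549 Tgfbr2-KO cells and 500 UPM (371 to 659) in the 9 control cells, 29 of the 50 control UMIs being in 1 cell. Irf1 had 237 UPM (227 to 248) in the same Tgfbr2-KO cells and 150 UPM (83.9 to 247) in the control cells.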
